A study of Mus musculus with 4 samples.

Results

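Epidermal growth factor (EGF) family ligands and their ERBB receptors were followed at the level of mRNA in HL-1 cells, an immortalised line that descends from a mouse atrial tumour and contracts in culture. The members were 10 genes, the ligand genes Hbegf, Areg, Ereg, Tgfa, Btc and Nrg1 and the receptor genes Egfr, Erbb2, Erbb3 and Erbb4, and every probe set annotated to exactly 1 of these symbols was taken. Areg had no such probe set in the annotation used and is not analysed here. The other 9 genes had 20 probe sets, out of 18193 genes and 45037 probe sets in the series. The stimulated group (2 arrays) held HL-1 cells grown to confluence in Claycomb medium and paced with electric pulses for 24 h at a rate of 300 per minute, about 1.5 to 2 times that of the controls. The control group (2 arrays) held confluent HL-1 cells in the same medium that beat on their own. All samples came from this 1 cell line and no group was paced at the control rate, so the effect of the rate and that of the current cannot be told apart. Total RNA of each sample was hybridised to 1 Affymetrix array. The titles number the stimulated samples as experiments (exp) and give the controls no number. The labels do not state that samples of a group came from separate cultures. The p-values then cover only the scatter among these arrays, part of which may be technical.

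The ligands of this family are made as membrane proteins whose outer part is cut off by metalloproteases of the ADAM family, with ADAM17 the main enzyme for several of them. The freed ligand joins receptors into pairs that phosphorylate each other and switch on the RAS-ERK and PI3K-AKT relays, and ERK in turn induces early genes and inhibitors that damp the receptors. In heart muscle neuregulin acts through ERBB4 and ERBB2 and is needed for the upkeep of the muscle cells, and shed HB-EGF can pass signals of stretch and of hormone receptors on to EGFR.

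The values were RMA values on the log2 scale, a change is stimulated minus control on that scale, and its error is the standard error (SE) of the limma fit. A gene is said to have risen or fallen only where its Benjamini-Hochberg adjusted p was under 0.05 over all 13058 genes tested, or, for single probe sets, over all 45037. Genes whose mean over the 4 arrays lay under 4.39, the 40th percentile of all probe sets, were not tested as genes. As a check of the label, all 13 atrial muscle markers listed lay past that level, led by the atrial myosin light chain gene Myl7 at 13.58 ± 0.19 in stimulated and 13.84 ± 0.0037 in control cells (SD, n = 2 each). Their summed level was 15.74 and 15.99 on the stimulated and 16.06 and 16.06 on the control arrays (log2 of the sum), and its part in the values below was not tested. Of these markers 1 rose, the atrial natriuretic peptide gene Nppa. The 3 that fell were the cardiac transcription factor genes Tbx5 and Gata4, and Ryr2 (-0.85, adjusted p = 0.0419 by limma). Among all genes tested 3.91% were called higher and 1.62% lower. The median change of the 13 was -0.48, against -0.0056 for all genes tested, and 1 of the 13 changes was positive. In 11 both stimulated arrays lay below both controls, which 27.7% of all genes tested showed.

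Of the 9 members with a probe set, 5 lay past the filter level and were tested as genes: Hbegf, Tgfa, Egfr, Erbb2 and Erbb3. Hbegf rose and the other 4 did not pass the test, while 5.53% of all genes tested were called, 3.91% higher and 1.62% lower. Ereg, Btc, Nrg1 and Erbb4 lay below the filter level in both groups. Over the 20 probe sets, 1 was called higher and 0 lower by limma, while among all probe sets 1.79% were called, 1.22% higher and 0.573% lower. An unadjusted p under 0.05 was found for 4 of the 20 and for 17.6% of all probe sets. In 8 of the 20 the stimulated and control arrays did not overlap, 3 being higher and 5 lower with stimulation. Among all probe sets 46.2% did not overlap, 20.8% higher and 25.4% lower.

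**Figure D1:**
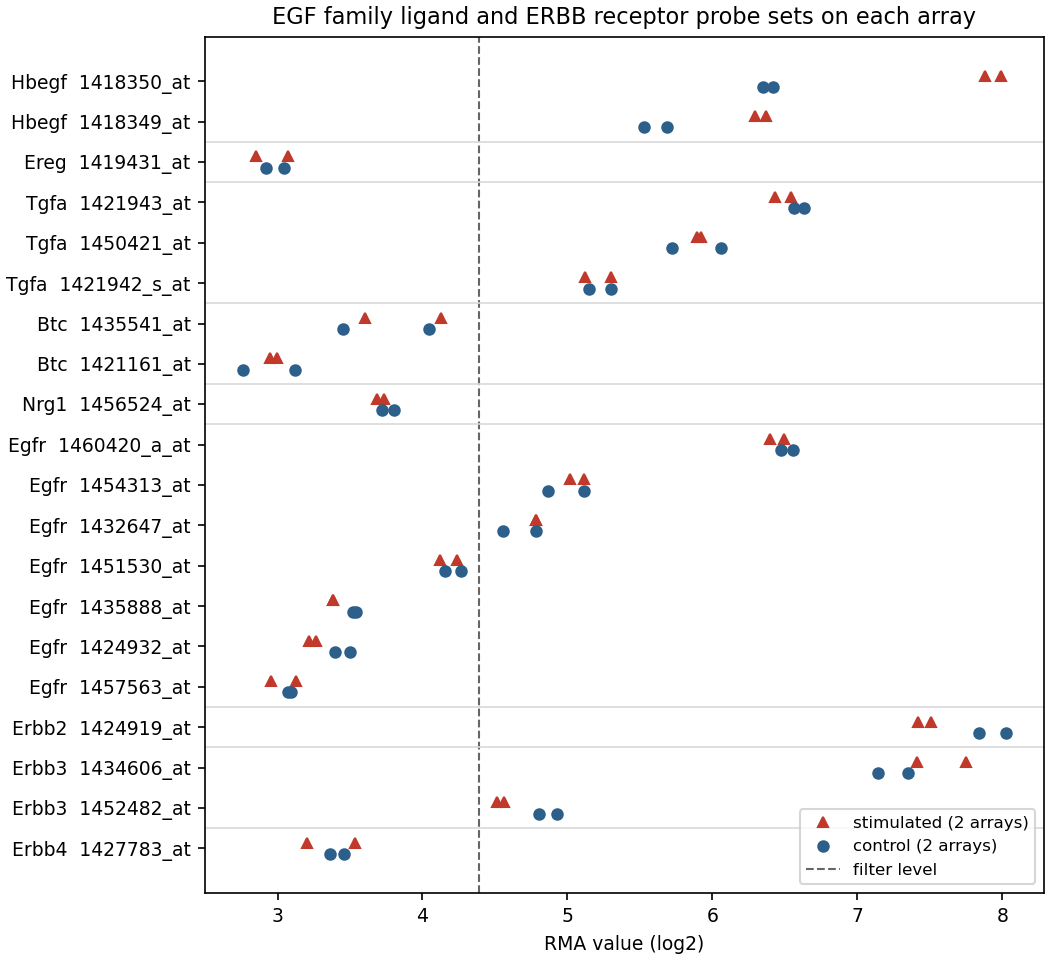
RMA value (log2, horizontal axis) of each of the 20 probe sets (rows, grouped by gene) on the 2 stimulated arrays (triangles) and the 2 control arrays (circles), with the filter level of 4.39 as a dashed line. Both Hbegf probe sets were higher on the stimulated arrays, Erbb2 was lower, and the probe sets of Ereg, Btc, Nrg1 and Erbb4 all lay left of the line.

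Hbegf encodes heparin-binding EGF-like growth factor, a ligand of EGFR and ERBB4 that is anchored in the membrane until it is shed. Its brighter probe set read 7.88 and 7.99 on the stimulated arrays, against 6.35 and 6.42 on the control arrays. The groups were far apart relative to the gap between arrays of 1 group, which was largest in stimulated cells. As a gene Hbegf rose by 1.55 ± 0.12 (SE), or 2.92-fold (95% confidence interval of the log2 change 1.24 to 1.85, adjusted p = 0.00873 by limma). The second probe set read 6.37 and 6.29 on the stimulated arrays, against 5.69 and 5.53 on the control arrays. It did not overlap between groups either, and its change of 0.72 ± 0.12 missed the threshold among all probe sets (adjusted p = 0.0536). The difference between the first and the second probe set was 1.51 and 1.70 on the stimulated arrays, against 0.67 and 0.89 on the control arrays. The 2 probe sets thus moved by unequal amounts, 0.82 apart, and the size of the rise depends on which is read. With the mean of both probe sets the rise was 1.14 (adjusted p = 0.0107). The call on Hbegf held without stimulated 1 (1.60, adjusted p = 0.0458) and without stimulated 2 (1.49, adjusted p = 0.0471). It was lost without control 1 (1.51, adjusted p = 0.0587) and without control 2 (1.58, adjusted p = 0.0702), where the change itself stayed close to that of all 4 arrays.

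The 3 genes with the 4-array pattern nearest to that of Hbegf, by Euclidean distance between values centred on their own mean and out of 13057 other genes, were Arid5a, Simc1 and Sqstm1. Arid5a, which encodes an RNA-binding protein, was nearest at a distance of 0.11, with 7.19 and 7.39 on the stimulated arrays and 5.82 and 5.85 on the control arrays. Sqstm1, the gene of the autophagy receptor p62, and Simc1 lay at a distance of 0.12 each and changed by 1.56 and 1.58 on the probe sets used. Other probe sets of Simc1 changed by 0.82 and 1.48, and another of Sqstm1 by 0.58. With 4 arrays this likeness says little more than that the sizes of the change were alike.

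Tgfa encodes transforming growth factor alpha, a ligand of EGFR, and was the only other ligand past the filter level. Its brightest probe set read 6.54 and 6.43 on the stimulated arrays, against 6.56 and 6.63 on the control arrays. The stimulated arrays lay just below the controls, by -0.11 ± 0.12, and the 95% confidence interval ran from -0.41 to 0.19 (adjusted p = 0.654). The other Tgfa probe sets changed by 0.02 and -0.01 and overlapped between groups. A change of Tgfa as large as that of Hbegf lay outside the interval of each of its 3 probe sets, whose outermost bounds were -0.40 and 0.38.

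The remaining ligands could not be followed closely because their signal was low. Ereg, the gene of epiregulin, a ligand of EGFR and ERBB4, read 3.07 and 2.85 on the stimulated arrays, against 2.92 and 3.04 on the control arrays. Btc, the gene of betacellulin, which binds the same receptors, read 4.13 and 3.60 in stimulated cells and 4.05 and 3.45 in control cells on its brighter probe set. For Nrg1, the gene of neuregulin 1, which binds ERBB3 and ERBB4, the values were 3.69 and 3.73 on the stimulated arrays and 3.81 and 3.72 on the control arrays. The groups overlapped in all 4 probe sets of these 3 genes, with changes between -0.05 and 0.12. RMA compresses differences near the bottom of the scale, so a change of these ligands was not detectable at this signal, which does not show that there was none. Among 5 further ligand genes of the family, Egf, Epgn, Nrg3 and Nrg4 had means of 3.34 to 4.32, also below the filter level, and Nrg2 changed by -0.13 (adjusted p = 0.582).

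**Figure D2:**
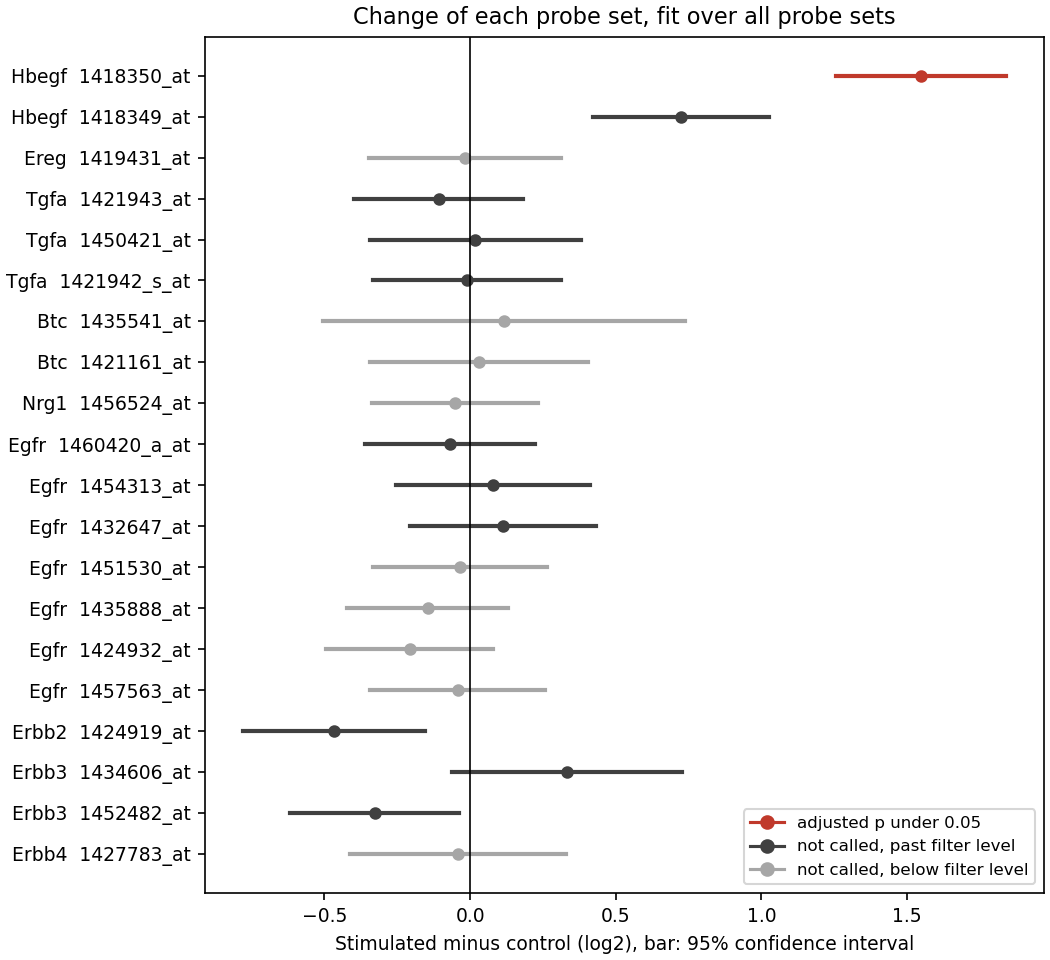
Change of each of the 20 probe sets (stimulated minus control, log2) with its 95% confidence interval, from the limma fit over all 45037 probe sets. The Hbegf probe sets lie at 1.55 and 0.72, Erbb2 at -0.47, and the 2 Erbb3 probe sets on opposite sides of 0, at 0.33 and -0.33.

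Among the receptors 0 of the 3 genes tested passed the test by limma, with 1, Erbb2, at an unadjusted p under 0.05, which 25.6% of all genes tested reached. Erbb2 encodes the receptor that binds no ligand of its own and serves as the preferred partner of the others. Its probe set read 7.51 and 7.42 on the stimulated arrays, against 7.84 and 8.02 on the control arrays. Both stimulated arrays lay below both controls, by -0.47 ± 0.13 on the log2 scale or 1.38-fold (95% confidence interval -0.79 to -0.14), and the adjusted p was 0.0954. Such a separation was found for 55.3% of all genes tested, with the stimulated arrays higher in 27.6% and lower in 27.7%.

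The stretch before the Erbb2 start site is shown because Erbb2 had the lowest change among the members. It comes from RefSeq (GRCm38.p6) and gives the 250 bases upstream of the start, chr11:98412234-98412483 on the plus strand, with capitals on a match to GGAATG, the motif of the TEAD factors, whose first base lies 88 bases before the start.
Erbb2: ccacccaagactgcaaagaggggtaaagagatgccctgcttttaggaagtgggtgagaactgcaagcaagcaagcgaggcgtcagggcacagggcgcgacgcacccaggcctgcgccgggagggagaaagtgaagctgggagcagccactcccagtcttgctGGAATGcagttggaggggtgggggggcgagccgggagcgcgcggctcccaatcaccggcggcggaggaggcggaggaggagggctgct
Among 32841 such windows 12.6% held GGAATG on either strand. For the members, 6 of 10 had a window in the table (Areg, Btc, Tgfa, Egfr, Erbb2 and Erbb4), and 6 motifs were searched in them on both strands: AP-1 (TGANTCA), the cyclic AMP response element (TGACGTCA), GGAATG, and the serum response, amino acid response and heat shock elements. Besides Erbb2, the Areg window held TGACGTCA, which 1.55% of the windows hold, and 0 motifs were found in the windows of Btc, Tgfa, Egfr and Erbb4. A match is a description of the letters and does not show that a factor binds there.

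Erbb3 encodes a neuregulin receptor with little kinase activity of its own. Its brighter probe set read 7.75 and 7.41 on the stimulated arrays, against 7.35 and 7.14 on the control arrays. The second read 4.56 and 4.51 on the stimulated arrays, against 4.80 and 4.92 on the control arrays. The groups did not overlap in either, and the directions were opposite: the first changed by 0.33 ± 0.17 as a gene (95% confidence interval -0.07 to 0.74, adjusted p = 0.275) and the second by -0.33 ± 0.12 among all probe sets (adjusted p = 0.230). The difference between the probe sets was 3.19 and 2.89 in stimulated cells, against 2.55 and 2.21 in control cells. No direction can be given for Erbb3, and the mean of both probe sets changed by 0.0028 (adjusted p = 0.994).

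Egfr encodes the receptor shared by Hbegf, Tgfa, Ereg and Btc and had 7 probe sets, of which 3 lay past the filter level. The brightest read 6.50 and 6.39 on the stimulated arrays, against 6.56 and 6.47 on the control arrays. These values overlapped, with a change of -0.07 ± 0.12 (95% confidence interval -0.37 to 0.24, adjusted p = 0.792). Over all 7 probe sets the changes ran from -0.21 to 0.11, with no bound of their intervals below -0.49 or above 0.43. The groups did not overlap in 2 of the 7, both lower with stimulation and both below the filter level. Erbb4, the gene of the neuregulin receptor with a full kinase, read 3.54 and 3.20 in stimulated cells and 3.36 and 3.46 in control cells. Its arrays overlapped at a level too low to follow a change, although ERBB4 is the receptor through which neuregulin acts in heart muscle.

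Genes that release and carry the ligands were taken from a list of 20, of which 13 were tested. Of these 2 rose, 0 fell and 11 did not pass, with a median of -0.0069, against -0.0056 for all genes tested. Among all genes tested 3.91% were called higher and 1.62% lower. Rhbdf1 encodes iRhom1, an inactive rhomboid that helps ADAM17 mature. It read 8.91 and 8.80 on the stimulated arrays, against 8.10 and 8.14 on the control arrays, a rise of 0.74 ± 0.12 (adjusted p = 0.0354). Timp3, the gene of an inhibitor of ADAM17 and of other metalloproteases, read 8.17 and 8.73 on the stimulated arrays, against 6.98 and 7.46 on the control arrays. It rose by 1.23 ± 0.24 (adjusted p = 0.0471), and its other probe sets changed by 0.73 to 1.32. Adam17 itself changed by -0.0069 ± 0.13 (adjusted p = 0.984, other probe sets -0.48 and -0.14), and Adam10, the gene of another sheddase, by -0.24 ± 0.12 (adjusted p = 0.275, other probe sets -0.64 and -0.59). Of the other ADAM genes tested, Adam19 changed by -0.72 ± 0.15 (adjusted p = 0.0515 by limma), Adam15 by 0.21 and Adam9 by -0.02. These ADAM genes were picked for their role after values had been seen. Neither Rhbdf1 nor Timp3 passed with any 1 of the 4 arrays left out, where adjusted p lay between 0.0711 and 0.178 for Rhbdf1 and between 0.101 and 0.189 for Timp3. Without a filter on the mean level Timp3 missed the threshold (adjusted p = 0.0533). The count on this list was 2 higher and 1 lower with the 60th percentile filter, the mean of probe sets, renewed quantile normalization, a trend and robust variance, or the replicate block. Under those settings 485 to 856 of all genes tested were called higher and 272 to 489 lower, of 9796 to 13061.

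**Figure D3:**
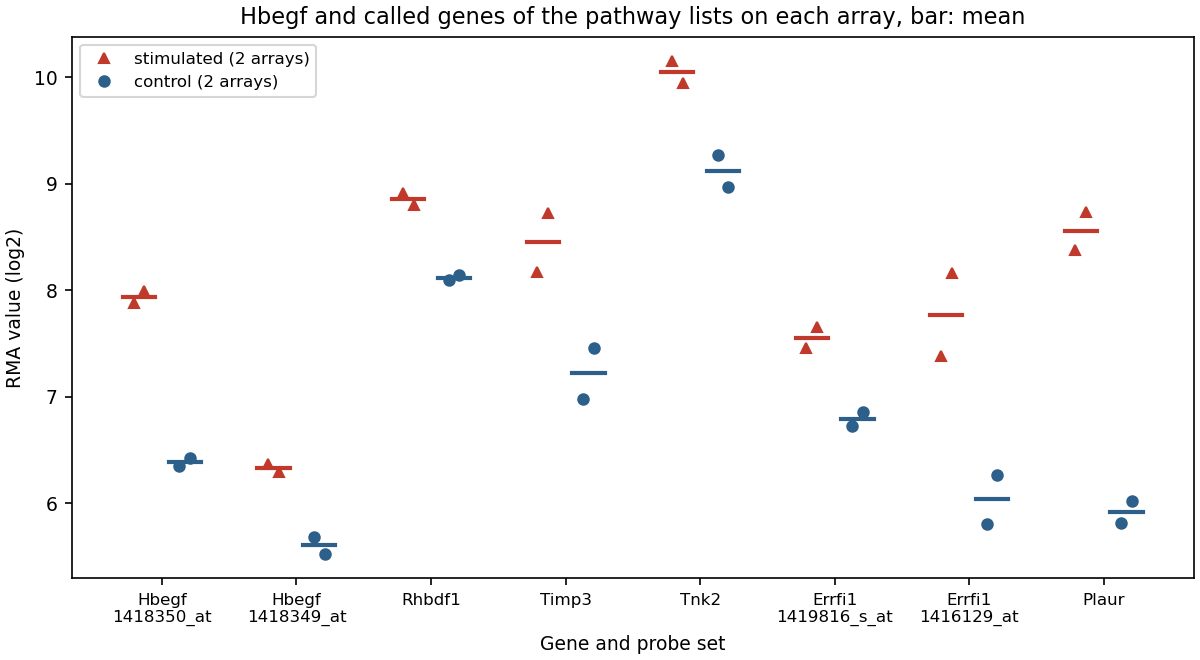
RMA value (log2, vertical axis) on the 2 stimulated arrays (triangles, left) and the 2 control arrays (circles, right) for both Hbegf probe sets, Rhbdf1, Timp3, Tnk2, 2 probe sets of Errfi1 and Plaur; bars are means of 2 arrays. The groups do not overlap in any of the 8 columns, and the gap is widest for Plaur, at 2.64.

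In the relays below the receptors 0 genes were called, although some passed under other settings. Over all genes tested 3.91% were called higher, 1.62% lower and 25.6% had an unadjusted p under 0.05, with a median of -0.0056. Of 32 genes for adaptors and the RAS-ERK relay 26 were tested, and by limma 0 passed (6 at an unadjusted p under 0.05), with a median of -0.01. The smallest p belonged to Sos2, which encodes an exchange factor that loads RAS with GTP, at 0.67 ± 0.15 (adjusted p = 0.0585, but 0.0459 with the 60th percentile filter, 0.0491 with the mean of probe sets and 0.0382 with the replicate block), and to Gab1, the gene of a docking protein, at -0.54 ± 0.13 (adjusted p = 0.0665, but 0.0294 with the mean of probe sets, at -0.72). Sos2 read 7.90 and 7.83 on the stimulated arrays, against 7.34 and 7.03 on the control arrays, and Gab1 read 9.33 and 9.28 on the stimulated arrays, against 9.76 and 9.92 on the control arrays. Another Gab1 probe set fell by 1.06 among all probe sets (adjusted p = 0.0435). Of 17 PI3K-AKT genes 15 were tested, and 0 passed by limma (4 at an unadjusted p under 0.05), with a median of -0.15. Pik3r3, the gene of a regulatory subunit of PI3K, changed by -0.70 ± 0.21 (adjusted p = 0.105, but 0.0430 with the replicate block), and Rictor, of the kinase complex mTORC2, by 0.41 ± 0.12 (adjusted p = 0.112). With the replicate block 2 RAS-ERK genes were called higher and 1 PI3K-AKT gene lower, against 856 higher and 489 lower of all 13058 genes tested. With the mean of probe sets 1 RAS-ERK gene was called higher and 2 lower, and 1 PI3K-AKT gene lower. That setting called 485 of all 12306 genes tested higher and 283 lower.

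Inhibitors of the receptors and genes of receptor turnover formed a list of 33, of which 28 were tested. Of these 2 rose, 0 fell and 26 did not pass, with a median of 0.16. Among all genes tested 3.91% were called higher and 1.62% lower, with a median of -0.0056. Errfi1 encodes MIG6, which binds the kinase domains of the receptors, blocks them and is itself induced by EGF. On the probe set used for the gene it read 7.45 and 7.65 on the stimulated arrays, against 6.72 and 6.85 on the control arrays, a rise of 0.76 ± 0.14 (adjusted p = 0.0390). On a second probe set Errfi1 read 7.38 and 8.16 on the stimulated arrays, against 5.80 and 6.27 on the control arrays, and rose by 1.74 ± 0.28 among all probe sets (adjusted p = 0.0489). Both probe sets of Errfi1 were thus higher on each stimulated array than on either control, by unequal amounts. Tnk2 encodes ACK1, a kinase that binds activated EGFR and takes part in its turnover. It read 10.15 and 9.95 on the stimulated arrays, against 9.28 and 8.97 on the control arrays, a rise of 0.93 ± 0.16 (adjusted p = 0.0370), and its other probe set rose by 1.07. With 1 array left out neither passed: adjusted p lay between 0.0960 and 0.188 for Errfi1 and between 0.0732 and 0.183 for Tnk2. The count on this list was 3 higher and 0 lower with the 60th percentile filter, with arrays quantile normalized again and with a trend and robust variance. It was 2 higher and 2 lower with the mean of all probe sets of a gene, and 4 higher and 1 lower with the replicate block. Under those settings 485 to 856 of all genes tested were called higher and 272 to 489 lower, of 9796 to 13061.

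Of the 2 Errfi1 start sites in the RefSeq table, the 250 bases before the second (chr4:150854820-150855069, plus strand, GRCm38.p6) are shown. Errfi1 was taken as a called gene whose product blocks the receptors, and this start site because its window held TGACGTCA. Capitals mark TGACGTCA, whose first base lies 51 bases before the start and which 1.55% of the windows hold. The window of the other start site held GGAATG.
Errfi1: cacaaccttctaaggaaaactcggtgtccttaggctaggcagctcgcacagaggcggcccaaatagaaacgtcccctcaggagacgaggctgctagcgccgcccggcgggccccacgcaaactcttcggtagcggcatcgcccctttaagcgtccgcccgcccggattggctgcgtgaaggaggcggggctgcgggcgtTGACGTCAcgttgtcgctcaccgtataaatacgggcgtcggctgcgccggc

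Early genes that growth factors induce, and that other stimuli induce too, formed a list of 30 with 24 tested. Of these 8 rose, 0 fell and 16 did not pass, with a median of 0.68. Among all genes tested 3.91% were called higher and 1.62% lower, with a median of -0.0056. The list was drawn up with earlier results of these data known, so its count is no independent support. Plaur, the gene of the urokinase receptor, had the smallest p, with 8.38 and 8.73 on the stimulated arrays, against 5.82 and 6.02 on the control arrays. It rose by 2.64 ± 0.17 (adjusted p = 0.00424) and was called with each of the 4 arrays left out. The transcription factor gene Jun rose by 2.25 ± 0.34 (0.98 on another of its probe sets), and Maff, the gene of a small MAF factor, rose by 2.88 ± 0.44. Etv5, an ETS factor gene induced by ERK, rose by 0.69 ± 0.14 (adjusted p = 0.0476), but its other probe sets changed by 0.50 and -0.09. The call on Etv5 was lost without a filter on the mean level (adjusted p = 0.0528), with each array centred on its median (0.0505), with the mean of its probe sets (a change of 0.37, adjusted p = 0.117) and with any 1 of the 4 arrays left out (0.112 to 0.238). Ccn1, Atf3, Ccn2 and Fosl1 were the other called genes, with changes of 3.36, 3.82, 3.16 and 2.63. Another Fosl1 probe set changed by 1.02, and other Ccn1 probe sets by 2.26, 2.29 and 3.69. The 16 that did not pass included Egr1 at 1.81 and Myc at 1.08. They also included Ier2 at 0.18, Etv4, another ETS factor gene, at 0.17, Egr3 at 0.03 and Ccnd1 at -0.05. Of the 24 changes 23 were positive. With stimulated 1, stimulated 2, control 1 or control 2 left out, the list's median was 0.82, 0.47, 0.71 and 0.60, in that order. The medians of all genes tested in those fits were -0.03, 0.02, 0.0026 and -0.0068. Fewer early genes were called in each of those fits, and fewer of all genes tested. Some called early genes varied between the stimulated arrays: Atf3 read 8.92 and 10.47, and Jun 6.95 and 8.05. Others varied less, with Plaur at 8.38 and 8.73 and Etv5 at 6.12 and 6.34, while Hbegf read 7.88 and 7.99.

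**Figure D4:**
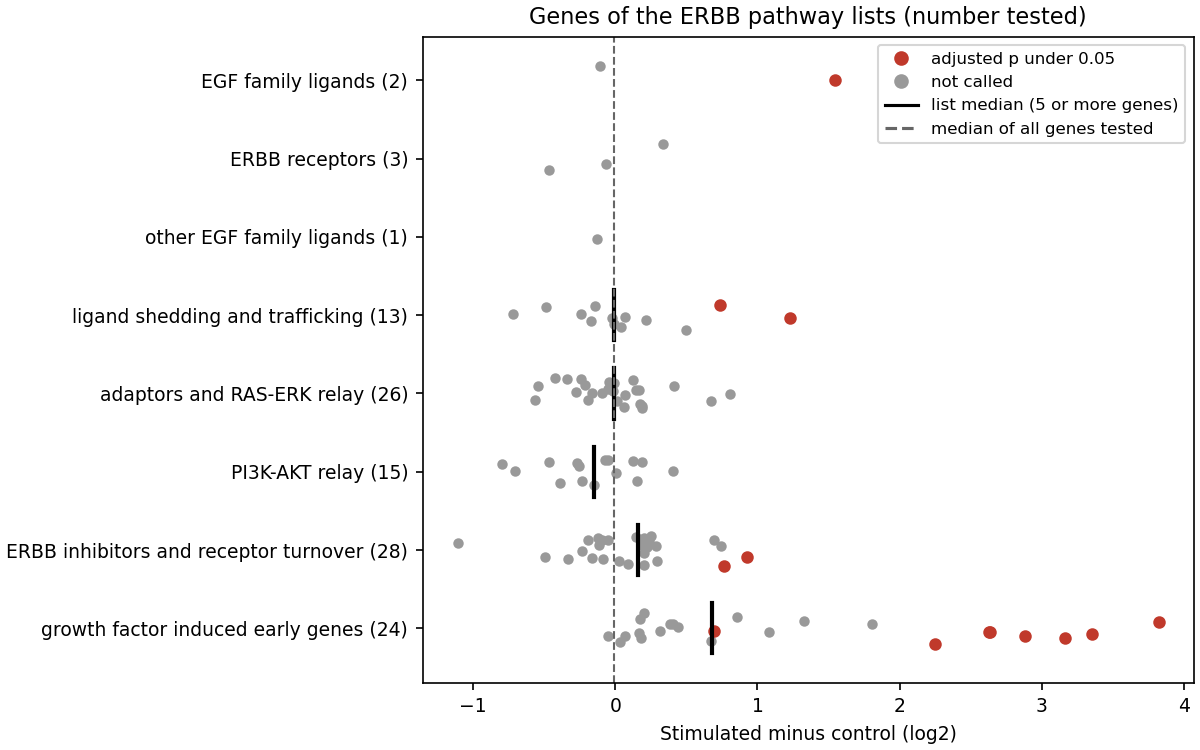
Change of each gene tested (stimulated minus control, log2, horizontal axis) in the member lists and in 6 lists of related genes (rows, number tested in brackets), with called genes in red, list medians as bars and the median of all genes tested, -0.0056, dashed. The receptors and both relays show 0 called genes, and 8 of the 24 early genes lie to the right as calls.

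Markers of other cell types were read beside these values, since a bulk sample cannot tell fewer cells of a type from less RNA per cell. The summed level of 6 epithelial markers was 11.25 and 11.48 on the stimulated arrays and 10.56 and 10.89 on the control arrays (log2 of the sum), led by Krt18 at a mean of 11.10 in stimulated and 10.45 in control cells. Of the 5 tested Krt8 changed by 1.08, Krt18 by 0.65, Krt19 by 0.57, Epcam by 0.02 and Cldn4 by -0.24, with a median of 0.57. The epithelial gene Cdh1 was below the filter level. By limma 0 of the 5 passed, and 3 had an unadjusted p under 0.05, which 25.6% of all genes tested reached. With the replicate block 2 were called higher, as were 856 of all 13058 genes tested. The 7 leukocyte markers summed to 8.09 and 8.15 on the stimulated arrays and 7.68 and 7.83 on the control arrays, the gene with the highest value being Cd3e at a mean of 6.43 in stimulated and 6.36 in control cells. Of 5 tested Cd68, a lysosomal protein gene that is high in macrophages, rose by 2.08 ± 0.23 (adjusted p = 0.0187 by limma). Among all genes tested 3.91% were called higher. The other 4 did not pass: Cd3e changed by 0.07, Cd79a and Lyz2 by -0.07 each and Adgre1 by -0.32. The median of the 5 was -0.07. Ptprc and Itgam lay below the filter level at means of 3.24 and 3.52. The summed levels of 8 fibroblast markers (7.50 and 8.12 on the stimulated, 7.57 and 8.40 on the control arrays), led by Col1a1, of 8 endothelial markers (7.29 and 7.23 on the stimulated, 7.41 and 7.27 on the control arrays), led by Kdr, and of 5 smooth muscle markers (14.26 and 14.52 on the stimulated, 14.06 and 14.31 on the control arrays), led by Acta2, overlapped between groups. By limma 0 of the 5 fibroblast, 2 endothelial and 4 smooth muscle markers tested passed, and 2 smooth muscle markers had an unadjusted p under 0.05. The part of other cells in the values of Hbegf, Errfi1 and the early genes was not tested.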

How the data were processed

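Each sample was measured on 1 Affymetrix array from biotin-labelled RNA. The deposited values were log2 values made by the authors with RMA, per the submitters' processing notes; the RMA settings and any tests by the authors are not given in the sources used here. Array medians lay between 4.95 and 5.01. Precision is limited by having 2 arrays per group. Probe sets were named from GEO's platform annotation: 34945 had 1 symbol, 932 several and 9160 none, and 64 manufacturer's controls were left out.

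Groups followed the sample titles. Each gene was represented by its probe set with the highest mean, and limma 3.58.1, run in R 4.3.3, fitted the difference between the groups (two-sided moderated test, no covariate) over genes past the 40th percentile, and separately over all probe sets without a filter. The fit over genes was tested on simulated data. With 2 arrays a side the smallest two-sided p of an exact permutation test is 0.333, so it was not used. Alternatives were each array left out, other filters, the mean of all probe sets, median centring, renewed quantile normalization, a trend and robust variance, and a replicate block. The members and the gene lists were chosen with earlier results of these data known. The text names all members, the called genes of each pathway list (up to 8, or the 2 with the smallest p), the leading and called markers, and the 3 genes nearest in pattern to a called member. Some other listed genes, such as the ADAM genes, Epcam, Cdh1, Adgre1, Ptprc, Itgam and the uncalled early genes, are named outside this rule. Listed genes without a probe set of their own symbol alone are not analysed here.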

Additional observations from a re-analysis of the deposited data

How the results depend on the processing

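Across the 722 genes called, 26 to 125 passed with 1 array left out (24 to 81 higher and 0 to 44 lower), and 1345 passed with the replicate block (856 higher, 489 lower). Genes called lower numbered 319 with the 60th percentile filter and 328 with a trend and robust variance, against 212. Among the members 1 gene, Hbegf, was called under every alternative run except without control 1 and without control 2, so that the count lay between 0 and 1 with 1 array left out. Its change lay between 1.14 and 1.56 under the alternatives that kept all arrays. The other 4 member genes tested were called under none of them and 0 changed sign, with adjusted p for Erbb2 down to 0.0736, and the Erbb3 value fell to 0.0028 with the mean of its probe sets. Pathway genes called numbered 12 with all arrays, 1 to 6 with 1 array left out and 20 with the replicate block.

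Over all 45037 probe sets 807 were called, 0 to 1 with 1 array left out, 1480 with the 60th percentile filter and 42 with the replicate block. Member probe sets called numbered 0 with each array left out and 0 with the replicate block, where the brighter Hbegf probe set had an adjusted p of 0.0554. They numbered 2, both of Hbegf, with the 40th or the 60th percentile filter, with each array centred on its median and with arrays quantile normalized again. Uncalled changes near 0 took both signs when 1 array was left out. These were Ereg (-0.130 to 0.0936), Btc (-0.181 to 0.415 and -0.148 to 0.210), the dimmer probe sets of Tgfa (-0.149 to 0.184, and -0.102 to 0.0789 for the dimmest), 3 probe sets of Egfr (-0.0450 to 0.204 for the second brightest, -0.0932 to 0.0253 for the next but 1, and -0.128 to 0.0410 for the dimmest) and Erbb4 (-0.209 to 0.126). The dimmest Tgfa probe set changed by 0.0016 with each array centred on its median, against -0.01. The cause of these shifts was not tested. The fits without 1 array leave a lone sample in a group, assumed to vary like the other group.

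The number of the second control is mentioned in its protocol and that of the first follows by elimination. The deviations of same-numbered arrays from their group means correlated at 0.33 across genes, which with 2 pairs does not settle whether the numbers pair the samples. With the replicate block Hbegf changed by 1.55 (adjusted p = 0.0114). RMA and the low signal of Ereg, Btc, Nrg1 and Erbb4 limit what can be seen of them.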

Other observations

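Some probe sets read exactly the same value on several arrays. The third brightest of the 7 Egfr probe sets read 4.78 on both stimulated arrays and on control 2, against 4.56 on control 1. The probe set of Spry4, the gene of an inhibitor of the RAS-ERK relay, had a mean of 4.35 in both groups, just below the filter level. In all, 58 of 45037 probe sets (0.129%) had an identical value on at least 3 arrays, and 5 of them on all 4. These 58 had a median level of 3.75.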
